A study of Mus musculus with 8 samples.

Results

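The mitochondrial ribosomal protein genes of mouse kidney are described here: the 77 genes, of 20245 entries measured, whose symbols begin with Mrpl or Mrps and a number. Of these, 48 carry an Mrpl symbol and 29 an Mrps symbol, and the rule uses the symbols and no measured value. The data are 8 RNA-seq libraries from whole kidneys of C57BL/6 mice, with 2 libraries for each of 4 groups: wild-type mice given DMSO (WT_DMSO), wild-type mice given FP (WT_FP), and mice with autosomal dominant polycystic kidney disease given DMSO (PKD_DMSO) or FP (PKD_FP). FP is read as flavopiridol, since the series' design names that drug, which blocks cyclin-dependent kinases including CDK9, the kinase of the transcription elongation factor P-TEFb. DMSO is a common solvent. No source used here gives the gene altered in the PKD mice, the driver of any Cre, the age, the dose or the length of treatment. Nothing in the labels says that the 2 libraries of a group came from separate animals, so each p-value measures the spread between libraries, which may be technical. Each value is read as an FPKM, a transcript level scaled to gene length and sequencing depth, although the headers name no unit. The number of reads behind each value is unknown.

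Mitochondria hold their own ribosome, the mitoribosome, which translates the few messenger RNAs of mitochondrial DNA into core subunits of the respiratory chain and ATP synthase. Its RNAs come from mitochondrial DNA, but every one of its proteins is encoded in the nucleus, made in the cytosol and imported. Some of these proteins descend from bacterial ribosomal proteins, while others are found in mitochondria and have no bacterial counterpart. The kidney tubule, above all the proximal tubule, is rich in mitochondria because it pumps ions and reabsorbs solutes at a high energy cost.

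By role, the 77 genes comprised 30 proteins of the large subunit with a bacterial homolog, 20 large subunit proteins specific to mitochondria, 16 small subunit proteins with a bacterial homolog and 10 small subunit proteins specific to mitochondria. Mrps30 and Mrps18a sit in the large subunit despite their symbols and were counted there. The remaining gene, Mrps36, is named as a ribosomal protein but encodes a component of the alpha-ketoglutarate dehydrogenase complex of the citric acid cycle, and it was kept apart. All 77 matched RefSeq on GRCm38.p6, where they lie on 17 chromosomes, with 10 on chromosome 11 and 8 on chromosome 17.

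RefSeq promoter windows of 300 bases, on GRCm38.p6, were found for 68 of the 77 genes and were searched on both strands for 5 short motifs, none of which contains another. The core of the NRF1 site, GCGCATGC, was in 8 of the 68 (11.8%), against 5.5% of the 10801 tested genes with such a window. The ETS motif CCGGAAG, which GABPA can bind, was in 25 (36.8%), against 18.5%, and the YY1 motif AAGATGGC was in 12 (17.6%), against 5.0%. The E-box CACGTG was in 5 (7.4%), against 11.5%, and CCAAT in 27 (39.7%), against 42.2%. In 65 nuclear respiratory complex subunits with a window, the NRF1, ETS and YY1 motifs were in 15.4%, 24.6% and 13.8%. In 61 cytosolic ribosomal proteins they were in 4.9%, 41.0% and 9.8%. The E-box and CCAAT were in 7.7% and 43.1% of the former and 9.8% and 31.1% of the latter. A match describes the letters and is not evidence of a bound factor. Among the 20 genes with a window that fell in PKD_DMSO, as described further on, the ETS motif was in 5 and the YY1 motif in 5. Among the 48 that did not pass that test they were in 20 and 7. These differences were not tested.

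Of the promoters with a match, 4 are printed because the values below turn on these genes: Mrpl22 and Mrpl51 fell in PKD_DMSO, Mrps18c had the smallest difference of its role, and Mrpl33 was the one gene higher in PKD_FP than in WT_FP. Each stretch runs 5′ to 3′ on the plus strand from 180 bases before the annotated start to 20 bases after it, with matches to any of the 5 motifs in capitals. They lie at chr11:58171484-58171683 (Mrpl22), chr6:125192020-125192219 (Mrpl51), chr5:100798579-100798778 (Mrps18c) and chr5:31613771-31613970 (Mrpl33).
Mrpl22: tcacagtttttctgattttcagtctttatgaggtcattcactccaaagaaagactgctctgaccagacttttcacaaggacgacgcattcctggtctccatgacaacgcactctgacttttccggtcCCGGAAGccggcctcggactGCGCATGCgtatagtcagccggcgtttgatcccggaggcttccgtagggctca
Mrpl51: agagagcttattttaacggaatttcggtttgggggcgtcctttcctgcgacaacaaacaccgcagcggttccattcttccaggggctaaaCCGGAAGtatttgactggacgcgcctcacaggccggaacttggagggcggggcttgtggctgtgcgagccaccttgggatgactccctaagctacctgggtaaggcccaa
Mrps18c: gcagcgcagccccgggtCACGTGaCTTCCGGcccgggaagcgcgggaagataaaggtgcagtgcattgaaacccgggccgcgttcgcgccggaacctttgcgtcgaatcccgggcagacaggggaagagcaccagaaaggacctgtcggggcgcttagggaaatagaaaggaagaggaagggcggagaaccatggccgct
Mrpl33: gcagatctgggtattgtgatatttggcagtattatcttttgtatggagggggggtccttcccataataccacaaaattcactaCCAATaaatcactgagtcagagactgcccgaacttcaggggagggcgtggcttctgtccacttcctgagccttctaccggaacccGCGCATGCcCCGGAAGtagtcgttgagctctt
Mrpl22 and Mrpl33 hold both an ETS and an NRF1 core match, Mrpl51 holds an ETS match, and Mrps18c holds an E-box beside an ETS match on the other strand. Mrpl33 also holds a CCAAT. The 4 were picked from promoters with a match and all hold the ETS letters, so they cannot show whether these letters go with a fall.

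In PKD_DMSO kidneys the transcripts of the mitoribosomal proteins were lower as a group. The summed level of the 77 genes was 5015 and 4870.0 FPKM in the WT_DMSO libraries, 4671 and 4754 in WT_FP, 3537 and 3051 in PKD_DMSO, and 4758 and 4345 in PKD_FP. Both PKD_DMSO libraries were below the other 6, while 1 PKD_FP library lay within the range of the wild-type ones and 1 below it. The group means were 4943 ± 103 FPKM (SD, n = 2) in WT_DMSO, 4713 ± 58.5 in WT_FP, 3294 ± 344 in PKD_DMSO and 4552 ± 292 in PKD_FP, or 95.3%, 66.6% and 92.1% of WT_DMSO for the last 3. The summed FPKM of all tested genes differed as well and was 87.2% of WT_DMSO in PKD_DMSO and 97.7% in PKD_FP. As a share of the summed FPKM of a library, the 77 genes made up 0.876% and 0.860% in WT_DMSO, 0.854% and 0.876% in WT_FP, 0.696% and 0.628% in PKD_DMSO, and 0.837% and 0.798% in PKD_FP. The smallest two-sided p of an exact permutation test with 2 libraries against 2 is 0.33, so the sums carry no test.

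**Figure D1:**
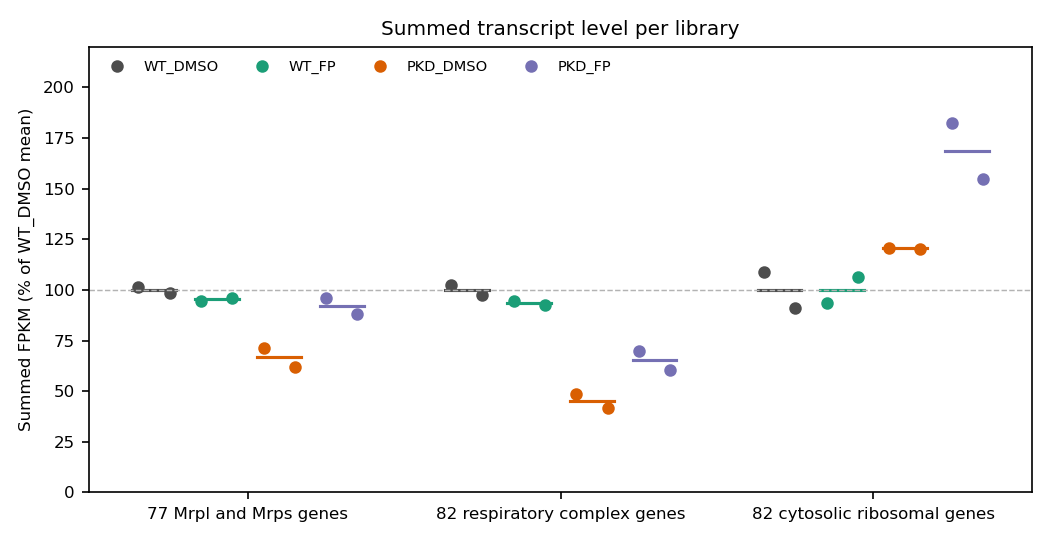
Summed FPKM in each library as a percent of the WT_DMSO mean (y axis) for 3 gene groups (x axis): the 77 Mrpl and Mrps genes, 82 nuclear subunits of the respiratory complexes and 82 cytosolic ribosomal proteins. Points are libraries and lines are group means (n = 2). The Mrpl and Mrps genes are at 66.6% in PKD_DMSO and 92.1% in PKD_FP, the respiratory subunits at 45.3% and 65.3%, and the cytosolic ribosomal proteins at 120.6% and 168.6%.

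Gene by gene, 25 of the 77 fell and 0 rose in PKD_DMSO relative to WT_DMSO (limma on log2(FPKM + 1), Benjamini-Hochberg adjusted p under 0.05 over 14391 genes). Across all genes tested, 7.52% fell and 14.8% rose. At an unadjusted p under 0.05, 38 members were lower and 0 higher, against 13.1% and 24.9% of all genes. All 77 had at least 1 FPKM in at least 2 libraries and were tested. Their median log2 fold change was −0.44, against 0.12 for all genes, and 69 of the 77 values were below 0. In 60 genes both PKD_DMSO libraries lay below both WT_DMSO libraries, which held for 24.5% of all genes, and in 3 (Mrpl9, Mrps12 and Mrps18b) both lay above, against 41.2% of all genes. The number past the threshold was 12 when only the 2 groups compared were fitted, where 5.3% of all genes fell and 9.4% rose. It depended on single libraries as well, but a fit without 1 of these libraries leaves 1 library in a group. Fewer members then passed, and without a PKD_DMSO library the share of all genes that fell was smaller too. Without PKD_DMSO replicate 2 the members' median log2 fold change was −0.39, against 0.10 for all genes, and without replicate 1 −0.52, against 0.14. Without WT_DMSO replicate 1 it was −0.455, against 0.21, and without WT_DMSO replicate 2 −0.41, against 0.04. Mrps21, Mrps36 and Mrps5 passed under all 15 alternatives tried, and they are the 3 that remained without PKD_DMSO replicate 2. Under median-of-ratios scaling, 28 members fell and 0 rose, against 9.4% and 10.6% of all genes, and under quantile normalization 27 fell and 0 rose, against 10.6% and 11.8%.

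**Figure D2:**
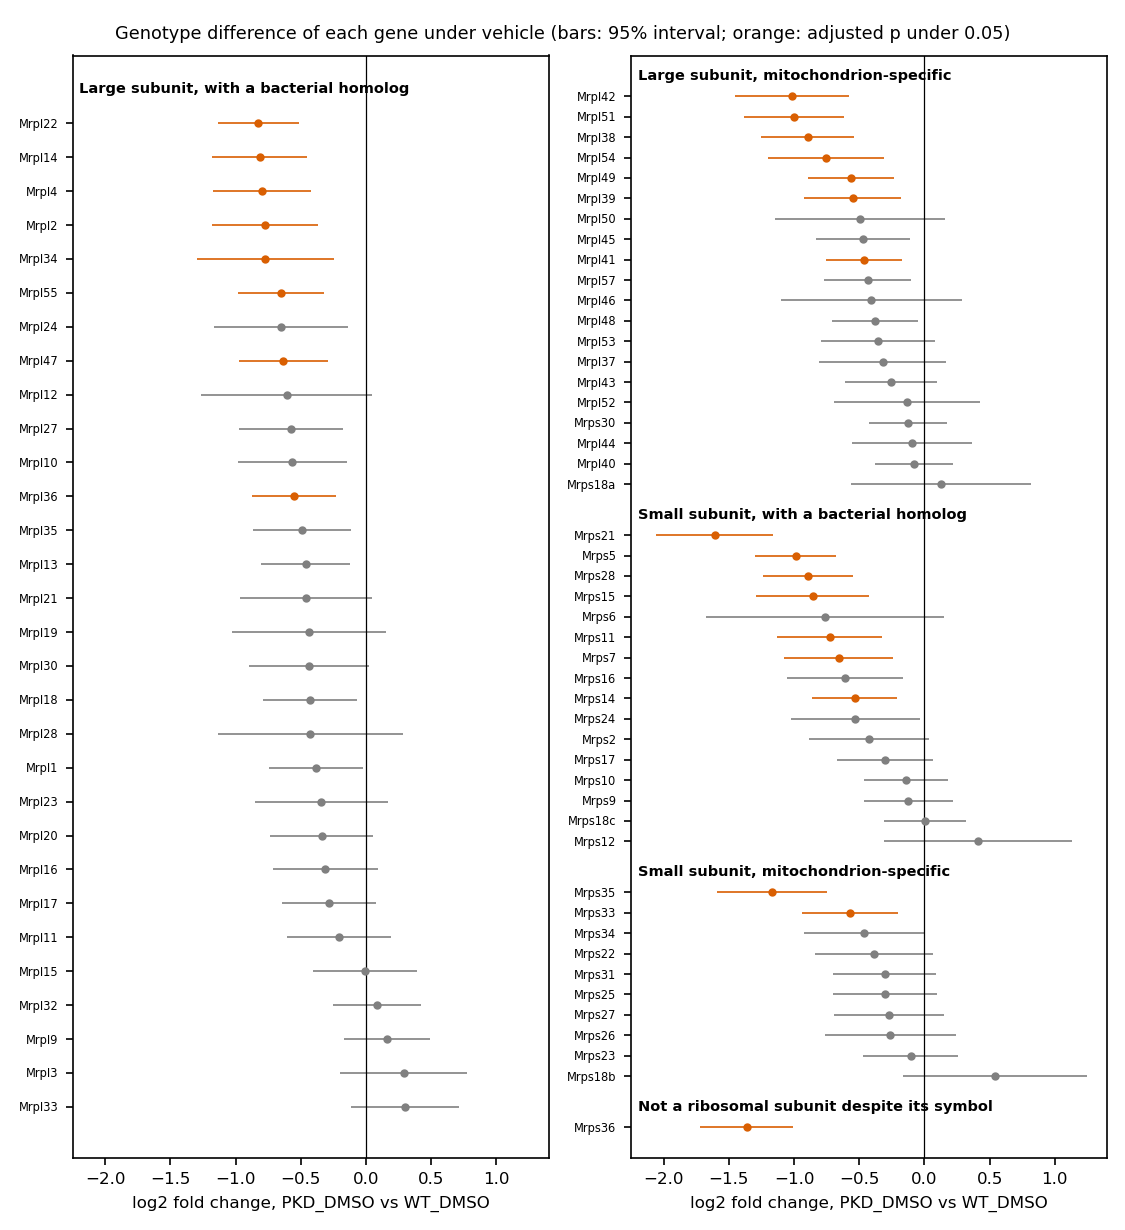
Log2 fold change of PKD_DMSO against WT_DMSO on the log2(FPKM + 1) scale (x axis) for each of the 77 genes (y axis), grouped by role, with 95% intervals from the limma fit as bars. Orange marks the 25 genes with an adjusted p under 0.05, all of them left of 0.

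The small subunit proteins with a bacterial homolog included the largest difference and the highest level of the family. Of these 16 genes, 7 fell and 0 rose, against 7.52% and 14.8% of all genes. Their median log2 fold change was −0.57, against 0.12 for all genes. Their summed level in PKD_DMSO was 56.6% of WT_DMSO. Of the mean sums, Mrps21 alone made up 447 of 1377 FPKM in WT_DMSO and 146 of 779.5 in PKD_DMSO, so that percentage leans on 1 gene. Mrps21 (chr3:95862634-95871514), the counterpart of bacterial protein S21, measured 483 and 411 FPKM in WT_DMSO, 345 and 430.3 in WT_FP, 162 and 131 in PKD_DMSO, and 252 and 259.9 in PKD_FP. Its level in both PKD_DMSO libraries was below all others, at 32.7% of the WT_DMSO mean, and its log2 fold change was −1.61 ± 0.19 (SE, adjusted p = 0.00405). No other member lost as many FPKM.

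Mrps5 (chr2:127587426-127603986), a core protein of the small subunit, measured 54.4 and 51.4 FPKM in WT_DMSO, 52.4 and 54.7 in WT_FP, 25.01 and 27.4 in PKD_DMSO, and 37.2 and 34.5 in PKD_FP. It fell by 0.99 ± 0.13 on the log2 scale (SE, adjusted p = 0.0055), and the PKD_FP libraries lay between PKD_DMSO and the wild-type libraries without touching either. Mrps28 measured 50.9 and 50.4 FPKM in WT_DMSO, 48.6 and 46.3 in WT_FP, 29.1 and 24.6 in PKD_DMSO, and 43.5 and 49.1 in PKD_FP, with a log2 fold change of −0.90 ± 0.14 (SE, adjusted p = 0.00944). Here the PKD_FP libraries overlapped those of WT_FP, in contrast to Mrps5. Mrps15, which binds the small subunit's ribosomal RNA, measured 62.0 and 53.0 FPKM in WT_DMSO, 50.1 and 54.2 in WT_FP, 36.4 and 26.7 in PKD_DMSO, and 52.3 and 53.5 in PKD_FP, and its log2 fold change was −0.86 ± 0.18 (SE, adjusted p = 0.02). The other 3 genes of this role that fell were Mrps11, Mrps7 and Mrps14, with log2 fold changes of −0.73, −0.66 and −0.54.

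Mrps6 had the second highest mean level of the family but no call. It measured 322 and 171 FPKM in WT_DMSO, 215 and 382 in WT_FP, 149 and 127 in PKD_DMSO, and 242 and 327 in PKD_FP, with replicates far apart in both wild-type groups. Its log2 fold change in PKD_DMSO was −0.76 ± 0.38 (SE, adjusted p = 0.192). The gene shares its start region and part of its length on chromosome 16 with Slc5a3, which encodes the sodium/myo-inositol cotransporter. Slc5a3 itself measured 35.7 and 26.8 FPKM in WT_DMSO, 31.3 and 49.4 in WT_FP, 18.7 and 19.1 in PKD_DMSO, and 21.2 and 31.0 in PKD_FP. No source used here says how reads of the shared stretch were assigned, so the share of Mrps6 reads that belong to Slc5a3 cannot be stated. At the other end, Mrps18c, the mitochondrial form of bacterial S18 in the small subunit, measured 61.1 and 60.2 FPKM in WT_DMSO, 62.4 and 55.3 in WT_FP, 61.1 and 60.5 in PKD_DMSO, and 70.3 and 67.8 in PKD_FP. Its PKD_DMSO and WT_DMSO libraries overlapped, and the log2 fold change was 0.00 ± 0.13 (SE, adjusted p = 0.992), with a 95% interval from −0.31 to 0.32.

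Among the 10 small subunit proteins specific to mitochondria, 2 fell (Mrps35 and Mrps33) and 0 rose, against 7.52% and 14.8% of all genes. The median log2 fold change was −0.30, against 0.12 for all genes, and the summed level in PKD_DMSO was 77.5% of WT_DMSO. Mrps35 (chr6:147042728-147070906) measured 60.1 and 63.3 FPKM in WT_DMSO, 66.6 and 58.5 in WT_FP, 31.3 and 23.0 in PKD_DMSO, and 44.2 and 41.6 in PKD_FP. Its PKD_DMSO libraries were the 2 lowest, and its log2 fold change was −1.17 ± 0.18 (SE, adjusted p = 0.00759). Mrps33, the gene with the highest mean level of this role, measured 60.4 and 48.6 FPKM in WT_DMSO, 52.6 and 54.5 in WT_FP, 37.1 and 35.2 in PKD_DMSO, and 51.1 and 56.8 in PKD_FP, with a log2 fold change of −0.57 ± 0.15 (SE, adjusted p = 0.041). In Mrps33 the PKD_FP libraries stood inside the wild-type range. Mrps34, next in level, measured 52.1 and 59.1 FPKM in WT_DMSO, 61.3 and 47.3 in WT_FP, 41.7 and 38.4 in PKD_DMSO, and 53.1 and 41.0 in PKD_FP, and its log2 fold change of −0.46 ± 0.19 (SE, adjusted p = 0.13) missed the threshold. Mrps23, with the smallest difference of the role, measured 45.0 and 46.1 FPKM in WT_DMSO, 43.5 and 48.8 in WT_FP, 41.8 and 42.7 in PKD_DMSO, and 51.3 and 41.4 in PKD_FP, and its log2 fold change was −0.11. Mrps18b, a paralog of Mrps18c that is also part of the small subunit, had the highest value of all 77, at 0.54 ± 0.30 (SE), which did not pass (adjusted p = 0.227).

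The 3 paralogs related to bacterial S18, Mrps18a, Mrps18b and Mrps18c, thus had log2 fold changes of 0.13, 0.54 and 0.00 in PKD_DMSO, and none passed the test. Only Mrps18c was counted among the genes with a bacterial homolog, while Mrps18a and Mrps18b were counted as specific to mitochondria despite this relation. Mrps36, which is no ribosomal protein, gave the smallest adjusted p of the family. It measured 112 and 129 FPKM in WT_DMSO, 104 and 115 in WT_FP, 47.7 and 44.4 in PKD_DMSO, and 67.4 and 60.2 in PKD_FP (chr13:100735940-100744659). Both PKD_DMSO libraries and both PKD_FP libraries were below the 4 wild-type ones, and the log2 fold change in PKD_DMSO was −1.36 ± 0.15 (SE, adjusted p = 0.00347). RefSeq lists pseudogenes of Mrps36, and also of Mrpl23, Mrpl48 and Mrpl27, so reads of these genes may have been split.

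**Figure D3:**
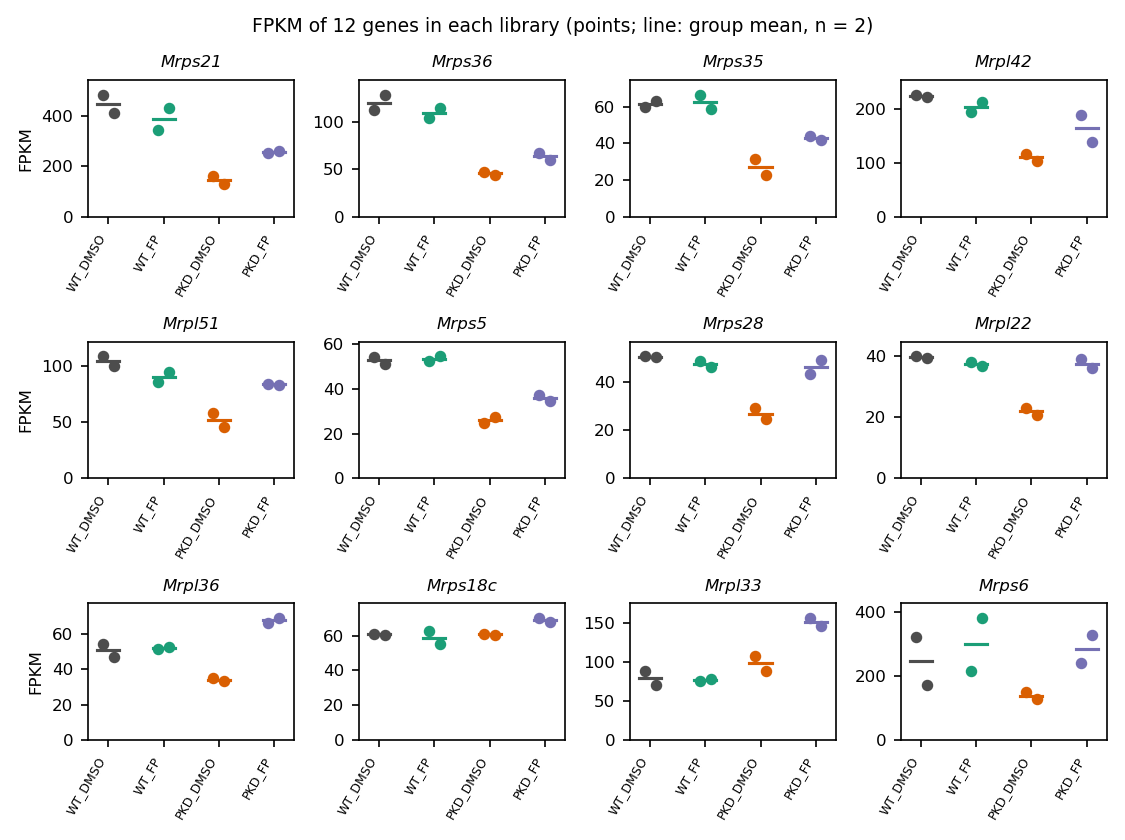
FPKM (y axis, from 0) in each library of the 4 groups (x axis) for 12 genes, with points for libraries and lines for group means (n = 2). In Mrps21 the PKD_DMSO libraries are at 162 and 131 FPKM against 483 and 411 in WT_DMSO, Mrps18c is at 61.1 and 60.5 against 61.1 and 60.2, and Mrpl33 is highest in PKD_FP, at 157 and 146.

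Of the 30 large subunit proteins with a bacterial homolog, 8 fell and 0 rose, against 7.52% and 14.8% of all genes. Their median log2 fold change was −0.45, against 0.12 for all genes, and their summed level in PKD_DMSO was 72.0% of WT_DMSO. Mrpl22 (chr11:58170043-58179580), which lines the exit tunnel of the nascent chain, measured 39.8 and 39.2 FPKM in WT_DMSO, 38.0 and 36.5 in WT_FP, 23.1 and 20.7 in PKD_DMSO, and 38.9 and 35.9 in PKD_FP, and its log2 fold change was −0.83 ± 0.13 (SE, adjusted p = 0.00865). The PKD_DMSO libraries stood apart from the other 6, which lay within a narrow range. Mrpl14, whose protein is bound by the assembly factor Malsu1, measured 86.5 and 72.7 FPKM in WT_DMSO, 72.6 and 70.8 in WT_FP, 47.4 and 42.0 in PKD_DMSO, and 68.4 and 75.2 in PKD_FP, with a log2 fold change of −0.82 ± 0.15 (SE, adjusted p = 0.0142). Mrpl4, another exit tunnel protein, measured 80.9 and 88.2 FPKM in WT_DMSO, 78.0 and 73.6 in WT_FP, 52.4 and 44.5 in PKD_DMSO, and 68.9 and 58.2 in PKD_FP, and its log2 fold change was −0.80 ± 0.16 (SE, adjusted p = 0.017). Mrpl2, which lies near the catalytic centre that joins amino acids, measured 104 and 103 FPKM in WT_DMSO, 115 and 102 in WT_FP, 68.1 and 53.1 in PKD_DMSO, and 98.4 and 87.5 in PKD_FP, with a log2 fold change of −0.77 ± 0.17 (SE, adjusted p = 0.0228).

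In these 4 genes both PKD_DMSO libraries were the lowest of the 8. The other members of this role that fell were Mrpl34, Mrpl55, Mrpl47 and Mrpl36, with log2 fold changes of −0.77, −0.65, −0.63 and −0.55. Mrpl12, which forms the stalk where translation factors dock, had the highest mean level of the role. It measured 164 and 218 FPKM in WT_DMSO, 188 and 144 in WT_FP, 132 and 116 in PKD_DMSO, and 169 and 106 in PKD_FP, and its log2 fold change of −0.61 ± 0.28 (SE, adjusted p = 0.155) missed the threshold, with replicates that differed widely within groups. Mrpl20 measured 117 and 133 FPKM in WT_DMSO, 126 and 113 in WT_FP, 106 and 90.5 in PKD_DMSO, and 139 and 121 in PKD_FP, and its log2 fold change of −0.34 ± 0.17 (SE, adjusted p = 0.181) missed it too. Mrpl15, with the smallest difference, measured 8.87 and 11.4 FPKM in WT_DMSO, 10.3 and 9.34 in WT_FP, 10.3 and 9.75 in PKD_DMSO, and 11.7 and 10.3 in PKD_FP, and its log2 fold change was −0.01 ± 0.17 (SE, adjusted p = 0.984).

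Of the 20 large subunit proteins specific to mitochondria, 7 fell and 0 rose, against 7.52% and 14.8% of all genes. Their median log2 fold change was −0.42, against 0.12 for all genes, and their summed level in PKD_DMSO was 69.4% of WT_DMSO. Mrpl42 (chr10:95480805-95501949) had the highest level here and measured 227 and 223 FPKM in WT_DMSO, 195 and 213 in WT_FP, 117 and 104 in PKD_DMSO, and 189.7 and 140.2 in PKD_FP. Its log2 fold change was −1.02 ± 0.18 (SE, adjusted p = 0.0127), and both PKD_DMSO libraries lay below every other library. Mrpl51 (chr6:125192200-125194392) measured 108 and 99.7 FPKM in WT_DMSO, 85.4 and 94.7 in WT_FP, 57.5 and 45.8 in PKD_DMSO, and 83.8 and 83.2 in PKD_FP, with a log2 fold change of −1.003 ± 0.16 (SE, adjusted p = 0.00925). Mrpl38, a protein of the central protuberance of the large subunit, measured 65.8 and 69.8 FPKM in WT_DMSO, 70.0 and 62.7 in WT_FP, 39.5 and 32.7 in PKD_DMSO, and 54.3 and 52.2 in PKD_FP, and its log2 fold change was −0.90 ± 0.15 (SE, adjusted p = 0.0102). Mrpl54 measured 133 and 102 FPKM in WT_DMSO, 94.8 and 111 in WT_FP, 73.8 and 64.1 in PKD_DMSO, and 127 and 114 in PKD_FP, with a log2 fold change of −0.75 ± 0.19 (SE, adjusted p = 0.0322).

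These genes did not share one level under FP: the PKD_FP libraries of Mrpl38 stayed below the wild-type ones, while those of Mrpl54 overlapped WT_DMSO. The other 3 genes of the role that fell were Mrpl49, Mrpl39 and Mrpl41, with log2 fold changes of −0.56, −0.55 and −0.47. Mrpl52, the next highest in level after Mrpl42, measured 165 and 105 FPKM in WT_DMSO, 105 and 115 in WT_FP, 134 and 108 in PKD_DMSO, and 198 and 190.0 in PKD_FP, and its log2 fold change of −0.13 ± 0.23 (SE, adjusted p = 0.709) did not pass. Mrpl40, with the smallest difference, measured 34.6 and 34.6 FPKM in WT_DMSO, 34.6 and 31.6 in WT_FP, 33.6 and 31.9 in PKD_DMSO, and 40.7 and 39.6 in PKD_FP, and its log2 fold change was −0.08 ± 0.13 (SE, adjusted p = 0.685). Mrps18a and Mrps30, the large subunit proteins with small subunit symbols, had log2 fold changes of 0.13 and −0.13 and did not pass.

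**Figure D4:**
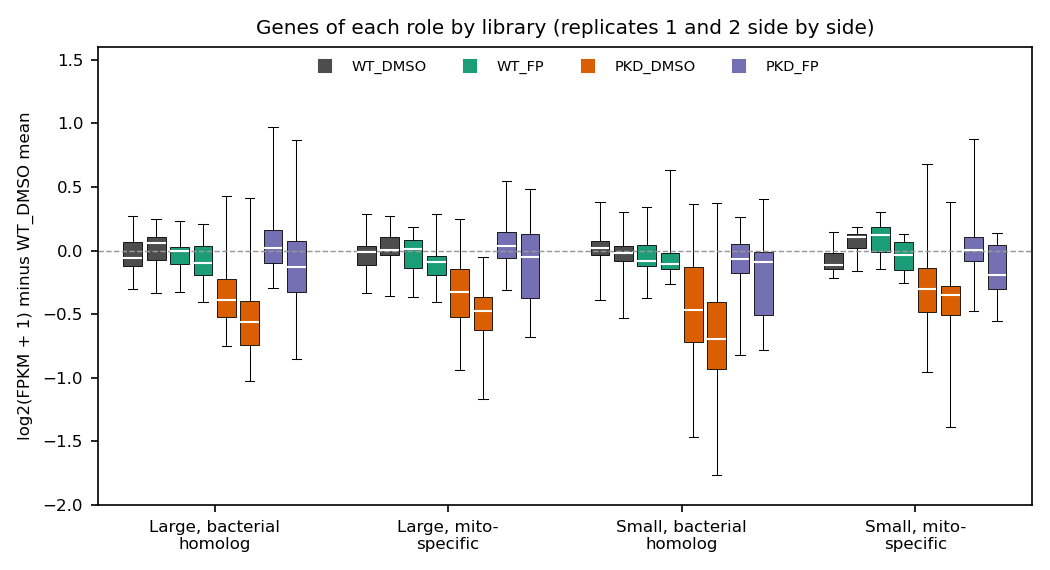
Log2(FPKM + 1) in each library less the WT_DMSO mean of the same gene (y axis) over the genes of each role (x axis), with replicates 1 and 2 of a group side by side. Boxes span the quartiles, white lines are medians and whiskers reach the lowest and highest gene; Mrps36 is left out. In each of the 4 roles the medians of both PKD_DMSO libraries are below 0.

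Members that fell did so to different degrees, and level and gene length were looked at as descriptions over the 77 genes, which share the same libraries and are not independent. The log2 fold change in PKD_DMSO had a Pearson correlation of −0.47 (Spearman −0.47) with the log2 level in WT_DMSO, a measure that also enters the fold change. With the length of the longest coding transcript the values were 0.14 and 0.19. The level itself had a correlation of −0.61 (Spearman −0.58) with that length, by which FPKM is divided. The differences between replicate 1 libraries and between replicate 2 libraries of PKD_DMSO and WT_DMSO had a correlation of 0.72 (Spearman 0.64) over the members and 0.68 (0.65) over all genes. Of the 77 genes, 20 overlap another measured gene in RefSeq, 4 of them among the 25 that fell. Adjacent members need not have the same call: Mrps11 (chr7:78783131-78792988) fell, while its neighbour Mrpl46 (chr7:78775341-78783089) measured 21.2 and 32.7 FPKM in WT_DMSO, 30.6 and 21.6 in WT_FP, 21.3 and 18.03 in PKD_DMSO, and 29.9 and 19.8 in PKD_FP and did not pass (log2 fold change −0.41 ± 0.29 (SE, adjusted p = 0.35)). This pair was picked for its position after its values were seen.

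Flavopiridol in the PKD kidney went with higher values for most of the family, but no member passed the test. In PKD_FP against PKD_DMSO 0 of 77 were called, and 0.00695% of all genes were called in each direction. At an unadjusted p under 0.05, 40 members were higher and 0 lower, against 10.3% and 9.14% of all genes. The median log2 fold change was 0.39, against 0.04 for all genes, and 71 of 77 values were above 0. Of 82 nuclear respiratory subunits and 82 cytosolic ribosomal proteins, 72 and 78 were above 0, so the rise was not particular to the family. Both PKD_FP libraries lay above both PKD_DMSO libraries in 58 members, which held for 31.4% of all genes, and below them in 1, Mrps12, against 25.2% of all genes. This comparison and that of PKD_DMSO with WT_DMSO use the same 2 PKD_DMSO libraries, so a low value there enters both with opposite signs.

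The members with the smallest p in this comparison were Mrpl36, Mrpl22 and Mrps28. Mrpl36, a small protein that joins the large subunit late in its assembly, measured 54.0 and 47.0 FPKM in WT_DMSO, 51.2 and 52.5 in WT_FP, 34.8 and 33.3 in PKD_DMSO, and 66.3 and 69.0 in PKD_FP. Both PKD_FP libraries exceeded all others, including wild type, and the log2 fold change was 0.97 with a 95% interval from 0.65 to 1.29 (unadjusted p = 0.000194, adjusted p = 0.124). Mrpl22 had a log2 fold change of 0.75 (0.44 to 1.06, adjusted p = 0.124) and Mrps28 one of 0.77 (0.42 to 1.11, adjusted p = 0.124). In both of these 1 PKD_FP library lay within the wild-type range and 1 below it. By role, the summed level in PKD_FP was 97.0% of WT_DMSO for the large subunit proteins with a bacterial homolog and 96.7% for those specific to mitochondria. It was 84.1% and 94.2% for the corresponding small subunit proteins, and 53.0% for Mrps36. The 84.1% leans on Mrps21, which stood at 57.3% of its WT_DMSO mean. That gene made up 447 of 1377 FPKM of the role's mean sum in WT_DMSO and 256 of 1158.5 in PKD_FP.

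In wild-type kidney the family showed no call under the drug. Of 77 members, 0 were called in WT_FP against WT_DMSO, as were 0.0% of all genes in each direction, and 0 members had an unadjusted p under 0.05, against 0.91% of all genes higher and 0.361% lower. The median log2 fold change was −0.04, against 0.09 for all genes. The smallest p belonged to Mrpl48, Mrpl9 and Mrpl51. Mrpl48, like Mrpl38 a protein of the central protuberance, measured 64.4 and 61.6 FPKM in WT_DMSO, 56.1 and 51.0 in WT_FP, 51.0 and 45.5 in PKD_DMSO, and 61.3 and 56.8 in PKD_FP, with a log2 fold change of −0.23 (95% interval −0.56 to 0.10). Mrpl9 measured 35.2 and 40.9 FPKM in WT_DMSO, 45.0 and 44.1 in WT_FP, 43.2 and 42.1 in PKD_DMSO, and 40.1 and 44.0 in PKD_FP, with 0.23 (−0.10 to 0.55), and Mrpl51 had −0.21 (−0.59 to 0.18). The intervals reach both sides of 0, so a fall or rise of that size is not told apart from none.

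The difference between the 2 drug effects was tested as the interaction of genotype and drug, and 0 members were called, as were 0.0% of all genes in each direction. At an unadjusted p under 0.05, 27 members had a more positive drug effect in PKD than in wild type and 0 a more negative one, against 4.45% and 6.78% of all genes. The median interaction was 0.44 on the log2 scale, against −0.05 for all genes, and 71 of 77 were above 0. Mrpl36 had an interaction of 0.93 ± 0.19 (SE, adjusted p = 0.384), Mrpl22 one of 0.83 ± 0.18 (adjusted p = 0.384) and Mrps28 one of 0.86 ± 0.20 (adjusted p = 0.384). A drug effect particular to the PKD kidney was therefore not shown for any member.

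Under flavopiridol in both genotypes, few members differed. In PKD_FP against WT_FP, 1 member rose and 2 fell, against 8.71% and 5.23% of all genes, and the median log2 fold change was −0.03, against 0.07. Both PKD_FP libraries were above both WT_FP libraries in 17 members (34.6% of all genes) and below them in 17 (25.2% of all genes). Mrpl33 (chr5:31613951-31622644), the counterpart of bacterial L33, rose: it measured 88.5 and 70.9 FPKM in WT_DMSO, 75.2 and 78.7 in WT_FP, 108 and 88.5 in PKD_DMSO, and 157 and 146 in PKD_FP, with a log2 fold change of 0.97 ± 0.17 (SE, adjusted p = 0.0194). Its PKD_DMSO libraries overlapped WT_DMSO in part, with a log2 fold change of 0.30 ± 0.17 (SE, adjusted p = 0.254). Mrps36 fell by 0.77 ± 0.15 on the log2 scale (SE, adjusted p = 0.0232) and Mrps5 by 0.57 ± 0.13 (adjusted p = 0.0357), with the values given above. None of these 3 calls held when any of the WT_FP or PKD_FP libraries was left out (0 called in each case). Across the 77 genes, the log2 fold changes of the 2 genotype comparisons, which share no library, had a correlation of 0.59 (Spearman 0.53), against 0.75 (0.67) over all genes.

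Other parts of mitochondrial gene expression were read from lists drawn up by function. Of 6 mitoribosomal proteins with other symbols, 4 fell in PKD_DMSO and 0 rose, against 7.52% and 14.8% of all genes. Gadd45gip1, which sits at the exit of the large subunit, measured 58.3 and 46.0 FPKM in WT_DMSO, 30.4 and 39.9 in WT_FP, 25.5 and 17.2 in PKD_DMSO, and 42.9 and 46.7 in PKD_FP, with a log2 fold change of −1.26 ± 0.23 (SE, adjusted p = 0.0141). Aurkaip1, Dap3 and Ptcd3, all of the small subunit, had −0.72, −0.49 and −0.48. Ict1, the peptide release protein in the large subunit also called Mrpl58, had −0.68 and did not pass (adjusted p = 0.0624).

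Of 16 translation factors and their partners, 5 fell and 0 rose, with a median of −0.37. Rmnd1, an inner membrane protein needed for mitochondrial translation, measured 48.8 and 37.3 FPKM in WT_DMSO, 41.8 and 42.0 in WT_FP, 16.6 and 12.6 in PKD_DMSO, and 19.7 and 19.6 in PKD_FP, with a log2 fold change of −1.499 ± 0.19 (SE, adjusted p = 0.00451). Slirp, which binds mitochondrial messenger RNAs together with Lrpprc, had −0.76, the initiation factor Mtif3 −0.63 and the ribosome recycling factor Gfm2 −0.62. Of 26 assembly and ribosomal RNA modification factors, 5 fell and 0 rose, with a median of −0.29: Mtg2, a GTPase of large subunit assembly, had −0.94, the 16S methyltransferase Rnmtl1 −0.70, the 12S chaperone Eral1 −0.67 and Malsu1 −0.58. Of 20 genes of mitochondrial aminoacyl-tRNA synthesis 2 fell (Tars2 and Cars2, −0.58 and −0.48), and of 10 genes of mitochondrial DNA transcription and maintenance 1 fell (Top1mt, −0.68). Across all genes tested 7.52% fell, and the counts of these last lists are close to that share. In PKD_FP against PKD_DMSO none of these genes was called. The calls in PKD_DMSO rested on single libraries too: Rmnd1 was the only gene of these 5 lists that was called without PKD_DMSO replicate 2, and likewise without WT_DMSO replicate 1.

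The regulators of nuclear genes for mitochondria went both ways in PKD_DMSO, where 7.52% of all genes fell and 14.8% rose. Of 10, 3 fell in PKD_DMSO: on the log2 scale, Ppargc1a and Ppargc1b, coactivators of mitochondrial biogenesis, by 0.58 ± 0.15 (SE, adjusted p = 0.0392) and 1.16 ± 0.32 (adjusted p = 0.0442), and the nuclear receptor Esrra by 1.13 ± 0.17 (adjusted p = 0.00725). Esrra measured 78.5 and 77.04 FPKM in WT_DMSO, 78.6 and 75.3 in WT_FP, 40.6 and 30.2 in PKD_DMSO, and 49.3 and 48.5 in PKD_FP. Both PKD_DMSO and PKD_FP libraries were below wild type. Myc, a factor that drives ribosome production, rose by 2.53 ± 0.21 (adjusted p = 0.00162), from 4.66 and 3.23 FPKM in WT_DMSO to 30.2 and 24.6 in PKD_DMSO, and the coactivator Pprc1 by 0.84 ± 0.18 (adjusted p = 0.022). The factors named for the NRF1, ETS and YY1 motifs were higher by value but did not pass: Nrf1 had 0.30 ± 0.20 (adjusted p = 0.297), Gabpa 0.40 ± 0.17 (0.142), Gabpb1 0.12 ± 0.31 (0.799) and Yy1 0.39 ± 0.14 (0.0988). Ppara, a receptor for fatty acids, had −0.05 ± 0.21 (adjusted p = 0.887). Without PKD_DMSO replicate 2, none of the falls and not all of the rises in PKD_DMSO held. In PKD_FP against WT_FP, 3 regulators fell and 2 rose, against 5.23% and 8.71% of all genes. Ppara was among those that fell there, by 1.01 ± 0.21 (adjusted p = 0.0282). In PKD_FP against PKD_DMSO it had −0.93 ± 0.21 and did not pass (adjusted p = 0.125).

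Set beside the family, 67 of 82 nuclear subunits of the respiratory complexes fell in PKD_DMSO and 0 rose, with a median log2 fold change of −1.15. Of 82 cytosolic ribosomal proteins, 0 fell and 14 rose, with a median of 0.30, where 7.52% of all genes fell and 14.8% rose. In PKD_FP against WT_FP, 18 of the 82 respiratory subunits fell (median −0.54) and 46 of the 82 cytosolic ribosomal proteins rose (median 0.77), where 2 of the 77 genes fell (Mrps5 and Mrps36, the latter no ribosomal protein) and 1 rose (Mrpl33). Of all genes, 5.23% fell and 8.71% rose in that comparison. In PKD_FP against PKD_DMSO, 0 genes of either list were called, and the median was 0.50 in both, against 0.39 for the 77 genes. At an unadjusted p under 0.05, 45 respiratory subunits and 53 cytosolic ribosomal proteins were higher and 0 lower. The shares of all genes were 10.3% and 9.14%. The median interactions of genotype and drug were 0.64 and 0.49, against 0.44 for the 77 genes. The differences between these lists were not tested. Without PKD_DMSO replicate 2, 15 respiratory subunits fell in PKD_DMSO and 0 cytosolic ribosomal proteins rose, and under median-of-ratios scaling 2 of the latter rose. Without WT_FP replicate 1, both of their counts in PKD_FP against WT_FP were 0.

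In whole kidney RNA, fewer cells of a type and less RNA per cell cannot be told apart, and markers of several cell types moved with the groups. The summed level of 15 proximal tubule markers, all measured, ranged from 37318 to 39826 FPKM in WT_DMSO, 25756 to 28848 in WT_FP, 3538 to 6508 in PKD_DMSO and 5501 to 5967 in PKD_FP. Kap, an androgen-responsive gene of the proximal tubule, made up much of that sum, with 26700 and 25856 FPKM in WT_DMSO, 15475 and 19670 in WT_FP, 2696 and 1221 in PKD_DMSO and 3039 and 4300 in PKD_FP. Without it, the other 14 markers summed to 10618 and 13970 in WT_DMSO, 13373 and 6086 in WT_FP, 3812 and 2317 in PKD_DMSO and 2462 and 1667 in PKD_FP. The 8 markers of the thick ascending limb and distal convoluted tubule summed to 1927 to 2194 in WT_DMSO, 2085 to 2466 in WT_FP, 1000.0 to 1037 in PKD_DMSO and 1292 to 1343 in PKD_FP. Within that list Cldn16 went the other way, with 12.4 and 12.1 FPKM in WT_DMSO and 14.6 and 15.0 in PKD_DMSO. The 9 measured macrophage markers summed to 73.2 to 117, 118 to 135, 651 to 1234 and 640 to 883, and the 7 erythroid ones to 1685 to 1841, 1582 to 1705, 203 to 285 and 949 to 971, in the same order. The 6 fibroblast markers summed to 139 to 369 in WT_DMSO, 269 to 348 in WT_FP, 637 to 1272 in PKD_DMSO and 953 to 1778 in PKD_FP. The 6 markers of intercalated cells of the collecting duct summed to 189 to 205, 205 to 222, 67.2 to 107 and 126 to 130, again in that order. Principal cell markers (6) summed to 760 to 1147, 634 to 1846, 571 to 606 and 868 to 1263. Aqp2 made up much of that sum, with 799 and 536 FPKM in WT_DMSO and 385 and 400 in PKD_DMSO. Scnn1b of this list went the other way, with 26.0 and 31.7 in WT_DMSO and 42.1 and 32.8 in PKD_DMSO. Endothelial markers (5) summed to 89.5 to 162, 102 to 194, 36.3 to 97.8 and 73.5 to 106. Podocyte markers (5) summed to 90.8 in both, then 78.3 to 112, 33.9 to 78.8 and 40.6 to 71.7. Synpo of this list overlapped between WT_DMSO (15.4 and 12.9) and PKD_DMSO (13.8 and 26.9). Lymphocyte markers (8) were low, at 5.04 to 5.43, 3.61 to 4.43, 4.24 to 6.01 and 7.77 to 9.01. Fat cell markers (8) summed to 113 to 285, 186 to 1644, 153 to 248 and 146 to 376. Of these, Cfd measured 3.27 and 1.27 FPKM in WT_DMSO and 41.5 and 46.7 in PKD_DMSO. Fabp4, much of the sum, overlapped between these groups, at 281 and 111 in WT_DMSO and 96.3 and 181 in PKD_DMSO. WT_FP replicate 2 also held 99.4 FPKM of Ucp1, a gene of brown fat, against 0.17 to 7.34 in the other 7 libraries. Without that library the median log2 fold change of the members in WT_FP against WT_DMSO was −0.001, against −0.04 with it. In PKD_FP against WT_FP it was −0.07, against −0.03. The part of these shifts in the values of the mitoribosomal genes was not tested.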

How the data were processed

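Total RNA was taken up in TRIzol and poly(A) libraries were made by BGI, per the labels' protocols. The deposited values are FPKM with 2 decimals, a unit inferred from the values and transcript lengths, since the headers name none. The submitters' processing notes name Bowtie2, DESeq2 and mm10 but no version or role. No source used here gives the counting tool or the reads per library, so depth is unknown. Summed FPKM ranged from 485924 to 572661 per library.

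A gene was tested if it reached 1 FPKM in 2 or more libraries (14391 of 20245 entries), leaving out 4 entries of 2 repeated symbols and 1 with a dash for a symbol. All 8 libraries entered 1 fit of group means to log2(FPKM + 1), a scale that understates changes of low genes, in limma 3.58.1 (R 4.3.3, statmod 1.5.0) with trend and robust moderation and no further scaling. Tests were two-sided, with Benjamini-Hochberg adjustment over the whole table. The script was tested on simulated data, and 15 alternatives were tried. Named were, in each role, the 2 genes highest in level, up to 4 with the largest called difference in PKD_DMSO and the 1 with the smallest difference, then genes called in other comparisons or, with none, the 3 smallest p. Of each functional list up to 4 called genes were named, and all regulators. The members and lists were chosen with earlier results of these data known.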

Additional observations from a re-analysis of the deposited data

How the results depend on the processing

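No called value reversed its direction under the 15 alternatives. Of the group-level values, 198 stayed within the limits set for them and 24 moved. Of the values of named genes and functional lists, 765 stayed the same, 182 lost their call and 73 moved. The number of members that fell in PKD_DMSO against WT_DMSO (25) became 12 when only the groups compared were fitted, and 3 to 19 when 1 library was left out. With the replicate block it was 17. Of the 25 calls, 5 ended only without PKD_DMSO replicate 2, and 10 ended in 5 or more alternatives. Median-of-ratios scaling moved the medians to −0.60 (PKD_DMSO against WT_DMSO), −0.15 (WT_FP against WT_DMSO) and −0.13 (PKD_FP against WT_FP). It and quantile normalization moved the median of all genes in the first of these from 0.12 to −0.01. Leaving out 1 library gave a median of 0.29 to 0.48 in PKD_FP against PKD_DMSO and 0.34 to 0.52 in the interaction. The median of PKD_FP against WT_FP then lay between −0.07 and 0.02. In that comparison the member that rose (1) became 0 to 2 when 1 library was left out, and the 2 that fell became 0 to 2, 0 with the replicate block and 0 when only the groups compared were fitted. Deviations of same-numbered libraries correlated at −0.515 to 0.485 between pairs of groups (0.485 between WT_FP and PKD_FP), and nothing in the labels ties the numbers to shared animals or batches. The number of reads is unknown, so what depth limits cannot be stated.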
